A study of Mus musculus with 18 samples.

Results

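The genes described are 51 genes of DNA replication and mitosis, taken as the rows of the count table whose Ensembl identifier belongs to one of the 51 symbols in the mouse genome build GRCm38. They are 51 of 55385 genes in the table and fall into 27 genes that act in G1 and S phase (G1/S genes) and 24 that act in G2 and M phase (G2/M genes). All 51 had at least 10 counts in at least 2 libraries, and the lowest count of a member in any library was 31. The genes were chosen by their function and not by a rule on measured values, but earlier results of these data were known. The comparisons were between the G1/S and the G2/M genes over 6 groups of macrophages, and between IL-4 and no IL-4 in vehicle-treated cells.

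The cells were bone marrow-derived macrophages (BMDM) of female C57BL/6J mice aged 12 weeks, grown from bone marrow in medium with L-929 culture supernatant, a source of the growth factor M-CSF, and harvested on day 7. They received vehicle (Veh, 0.1% DMSO), 250 µM hemicholinium-3 (HC3, a blocker of choline uptake) or 5 µM RSM-932a (RSM, an inhibitor of choline kinase) for 24 h. Over the next 24 h the cells were either left unpolarized, named M[0], or given IL-4 at 20 ng/mL, named M[IL-4]. This gave Veh M[0], HC3 M[0], RSM M[0], Veh M[IL-4], HC3 M[IL-4] and RSM M[IL-4], with 3 libraries of poly-T-selected mRNA per group and 18 in all. The material came from 3 individual mice, but the labels do not say that a replicate number is the same mouse in every group, and all the cells had been in growth factor medium, so no group is a resting tissue macrophage.

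Cells enter the cycle when D cyclins with CDK4 and CDK6 release E2F factors from the pocket protein RB, after which E cyclins, the licensing factors and the replication enzymes are transcribed. Genes of G2 and mitosis are induced later through the MuvB complex, first with B-MYB and then with FOXM1, and many of their promoters carry a short element called CHR (cell cycle genes homology region). Macrophages grown from marrow in M-CSF still divide in culture, and IL-4 is known as a signal that can drive division of macrophages in tissues.

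Promoter windows of 250 bases before to 50 bases after the start site were found in RefSeq (GRCm38.p6) for 40 of the 51 genes, 20 of each phase. No window was matched for *Ccne2*, *Ccnd2*, *Mcm4*, *Kif20a*, *Tpx2*, *Aurkb*, *Gins1*, *Pole*, *Gins2*, *Ccna2* and *Ccnd1*. Both strands were searched for words that stand for E2F sites (TTTCCCGC, TTTCGCGC, TTTGCCGC and TTTGGCGC), for CHR (TTTGAA and TTCGAA) and for the CCAAT box (CCAAT). E2F words of the 2 strands can overlap each other, as they do in *Mcm5* and *Mcm6*. Below are the stretches just before the start site of 3 G1/S and 3 G2/M genes, shown because the words differ between the phases, with the words in capitals, read 5′ to 3′ on the gene's strand.

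The windows are chr8:75109349-75109508 on the plus strand for *Mcm5* and chr1:128359706-128359825 on the minus strand for *Mcm6*, which encode subunits of the replicative helicase. *Pola1*, the catalytic subunit of DNA polymerase alpha, has chrX:93632156-93632305 on the minus strand.
Mcm5: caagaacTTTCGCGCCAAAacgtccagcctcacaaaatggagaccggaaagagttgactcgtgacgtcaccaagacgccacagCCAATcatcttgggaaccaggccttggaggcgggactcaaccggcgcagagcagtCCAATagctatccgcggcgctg
Mcm6: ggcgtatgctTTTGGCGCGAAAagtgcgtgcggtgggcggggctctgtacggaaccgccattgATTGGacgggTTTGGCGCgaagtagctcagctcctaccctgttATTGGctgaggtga
Pola1: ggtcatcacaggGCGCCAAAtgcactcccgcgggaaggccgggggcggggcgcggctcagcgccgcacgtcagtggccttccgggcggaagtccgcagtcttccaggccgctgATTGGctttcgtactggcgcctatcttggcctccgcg

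For the G2/M genes they are chr10:69352913-69353052 (minus strand) for *Cdk1*, the kinase that starts mitosis, and chr11:99024190-99024379 (minus strand) for *Top2a*, the topoisomerase that untangles chromosomes. *Kif11*, a motor that pushes the spindle poles apart, has chr19:37376302-37376381 (plus strand).
Cdk1: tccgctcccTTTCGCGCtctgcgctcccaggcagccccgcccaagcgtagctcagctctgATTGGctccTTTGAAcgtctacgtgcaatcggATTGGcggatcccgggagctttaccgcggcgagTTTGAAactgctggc
Top2a: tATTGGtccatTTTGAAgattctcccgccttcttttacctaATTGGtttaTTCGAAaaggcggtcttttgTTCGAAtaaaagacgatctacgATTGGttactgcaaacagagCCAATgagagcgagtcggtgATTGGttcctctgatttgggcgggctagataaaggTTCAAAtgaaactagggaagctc
Kif11: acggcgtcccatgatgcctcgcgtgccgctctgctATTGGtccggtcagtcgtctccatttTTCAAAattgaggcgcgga

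E2F words stood in 8 of 20 G1/S windows (40%) and in 1 of 20 G2/M windows (5%, that of *Cdk1*), against 4.09% of the windows of 10544 tested genes and 2.26% of all 32851 windows. CHR words stood in 3 of 20 G1/S windows (15%) and in 14 of 20 G2/M windows (70%), against 14% and 19.2%. With only the 250 bases before the start, the share of G2/M windows with a CHR word was 40%, so many of these words lay after the start site. In those 250 bases the share of G1/S windows with an E2F word was 25%, against 3.41% for tested genes. The counts below are again for the whole window. CCAAT stood in 12 of 20 G1/S (60%) and in 17 of 20 G2/M windows (85%), against 38.7% and 37.4%. A match is a description of these letters only, and binding was not measured.

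Total counts per library were 17457796 to 19522255, so 3 counts are about 0.154 to 0.172 CPM (counts scaled to a common library size), and the 51 genes took 0.0958% to 0.302% of a library. Replicates of a group differed by 5.79 to 18.2 on a chi-square scale per gene where counting alone gives about 1, and no library was a copy of another. Transcripts of the mitochondrial genome took 1.68% to 2.20% of counts in the 6 vehicle libraries, 2.499% to 3.45% in the 6 of HC3 and 0.665% to 0.829% in the 6 of RSM, so that this share did not overlap between the treatments. The 6 IL-4 response genes checked were higher in M[IL-4] than in M[0] with vehicle, HC3 and RSM, and all 7 macrophage markers were detected in every group. The 7 macrophage markers summed to 19650 to 20765 CPM in Veh M[0], 8460 to 9556 in HC3 M[0], 15244 to 16775 in RSM M[0], 11663 to 12027 in Veh M[IL-4], 7403 to 8593 in HC3 M[IL-4] and 10452 to 12849 in RSM M[IL-4]. Of 7 stromal genes, 6 passed the count filter, and the 7 summed to 527 to 888 CPM in Veh M[0], 1233 to 1699 in HC3 M[0], 1036 to 1486 in RSM M[0], 285 to 665 in Veh M[IL-4], 563 to 1061 in HC3 M[IL-4] and 540 to 1077 in RSM M[IL-4]. Of 9 progenitor markers, 6 were below 1 CPM in every library, with *Elane* at 0, and *Cd3d*, *Cd3g* and *S100a9* were at 0 as well. The 9 summed to 4.68 to 5.99 CPM in Veh M[0], 11.9 to 19.7 in HC3 M[0], 3.64 to 4.03 in RSM M[0], 4.82 to 7.97 in Veh M[IL-4], 4.76 to 7.75 in HC3 M[IL-4] and 1.29 to 2.496 in RSM M[IL-4], above vehicle with HC3 in M[0] and below it with RSM in both polarizations. Of 6 B cell markers, 5 were below 1 CPM in every library, and the 6 summed to 3.47 to 7.58 CPM in Veh M[0], 9.68 to 15.2 in HC3 M[0], 7.58 to 12.5 in RSM M[0] and 2.497 to 8.87 in the 9 libraries of M[IL-4]. The mitochondrial share and these sums moved with the treatments, and their part in the results below was not tested. In RNA from whole cultures, fewer dividing cells and less RNA of these genes per cell cannot be told apart.

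Levels are given as CPM on libraries scaled by the TMM method of edgeR. Differences are log2 fold changes ± standard error from edgeR's quasi-likelihood test in 1 fit of all 18 libraries, with Benjamini-Hochberg adjustment (FDR) over 14979 tested genes. A gene passed the test at an FDR under 0.05, and it was called when its log2 fold change was also at least 1 or at most -1. Per kilobase of exon, the highest mean level in Veh M[0] was that of *Pcna*, the sliding clamp of DNA polymerases, at 173 CPM per kb, followed by *Ccnd1* at 30.02 and *Mcm6* at 27.1 CPM per kb. The lowest were *Ttk*, a spindle checkpoint kinase, at 1.12 CPM per kb, *Cdc6* at 1.17 and *Mcm10* at 1.27 CPM per kb.

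In vehicle, IL-4 raised 18 of 27 G1/S genes and 9 of 24 G2/M genes, and no member fell at this FDR. Over all tested genes, 16.1% rose and 14.9% fell by the same rule. The median log2 fold change was 0.51 for G1/S genes and 0.39 for G2/M genes, against -0.01 over all tested genes. All rises were smaller than 2-fold, with 0.89 as the highest log2 value, so 0 members were called by edgeR and 0 by DESeq2, against 2.83% of all genes called higher and 3.83% called lower. At an unadjusted p under 0.05 edgeR gave 24 G1/S and 15 G2/M genes, and by DESeq2 22 and 11 passed the FDR. The 3 libraries of Veh M[IL-4] lay above all 3 of Veh M[0] for 22 G1/S and 18 G2/M genes. The share over all tested genes was not counted for unadjusted p, for DESeq2 or for libraries that lay apart. Those counts are therefore not read as particular to the members. No test was made of whether G1/S genes rose more than G2/M genes.

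**Figure D1:**
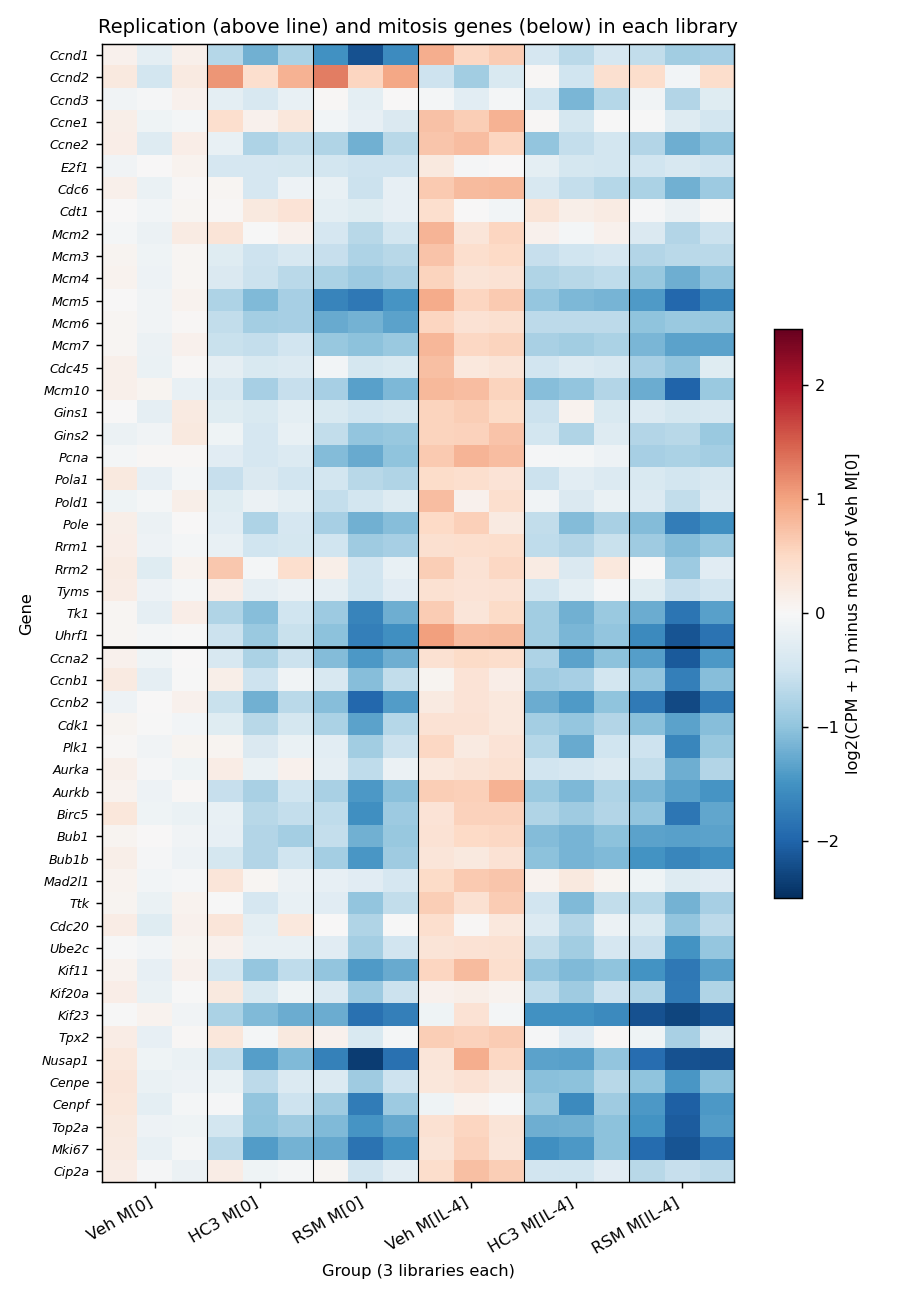
Level of each of the 51 genes in each of the 18 libraries, as log2(CPM + 1) minus the gene's mean in Veh M[0] (colour scale), with genes in rows ordered by phase and role and libraries in columns by group. The 3 columns of Veh M[IL-4] are above Veh M[0] for most genes, and the columns of HC3 and RSM are below it for most genes, most deeply in RSM M[IL-4].

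The count of G2/M genes that rose depended on the fit, and shares over all genes were counted in the main fit only. It was 17 with the replicate number as a block, 16 with only the vehicle libraries fitted and 2 without the libraries numbered 3, where the G1/S count was 10.

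D cyclins drive the entry into G1, and the 3 of them went separate ways. *Ccnd1* (cyclin D1) was at 152, 119 and 153 CPM in Veh M[0] and at 266, 201 and 218 CPM in Veh M[IL-4], a log2 fold change of 0.69 ± 0.16 (FDR = 0.00220), with no overlap of the groups. *Ccnd2* (cyclin D2) was at 46.6, 28.0 and 45.4 CPM and at 26.8, 20.9 and 29.7 CPM in the same order, so that the groups overlapped, and the log2 fold change of -0.63 ± 0.25 missed the threshold (FDR = 0.0627). *Ccnd3* (cyclin D3) was at 29.6, 30.6 and 34.0 CPM and at 30.3, 26.0 and 30.1 CPM, with a log2 fold change of -0.13 ± 0.15 (FDR = 0.583, 95% interval -0.45 to 0.20). One of 3 D cyclins thus passed the test with IL-4.

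E cyclins activate CDK2 at the start of S phase. *Ccne1* (cyclin E1) was at 7.35, 6.05 and 6.35 CPM in Veh M[0] and rose to 11.6, 10.6 and 12.8 CPM in Veh M[IL-4] (log2 fold change 0.82 ± 0.17, FDR = 8.72e-04). *Ccne2* (cyclin E2) was at 11.2, 7.69 and 11.2 CPM and rose to 16.5, 17.5 and 14.9 CPM (0.70 ± 0.20, FDR = 0.0133). In neither did the groups overlap. *E2f1*, which encodes the E2F factor that induces many replication genes, was at 48.3, 51.2 and 54.0 CPM and at 60.8, 50.3 and 51.8 CPM, and its 0.09 ± 0.08 did not pass the test (FDR = 0.423, 95% interval -0.07 to 0.25). The level of *E2f1* mRNA thus overlapped between the groups while both E cyclins were apart.

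Licensing factors load the MCM helicase on origins of replication, and 7 of these 8 genes rose with IL-4, including all 6 helicase subunits. *Mcm7* had the lowest FDR of the group, with 46.5, 40.7 and 48.6 CPM in Veh M[0] and 81.0, 65.3 and 66.7 CPM in Veh M[IL-4] (log2 fold change 0.65 ± 0.09, FDR = 1.24e-05). *Mcm5* went from 53.4, 49.8 and 56.1 CPM to 101, 76.9 and 83.7 CPM (0.72 ± 0.13, FDR = 2.16e-04), and *Cdc6*, which loads the helicase with CDT1, from 6.75, 5.35 and 6.29 CPM to 10.2, 11.3 and 11.5 CPM (0.84 ± 0.17, FDR = 9.29e-04). All of these values were apart between the groups. *Cdt1* itself was at 53.9, 50.7 and 55.6 CPM and at 71.3, 53.7 and 50.6 CPM, where library 1 alone stood high, and did not pass the test (0.13 ± 0.10, FDR = 0.362).

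Of 4 genes that switch the helicase on, 3 rose. *Gins2*, a subunit of the GINS complex, was at 9.57, 9.99 and 12.96 CPM in Veh M[0] and at 16.4, 16.5 and 18.1 CPM in Veh M[IL-4] (log2 fold change 0.65 ± 0.15, FDR = 0.00274). *Cdc45*, the other partner of the active helicase, was at 8.07, 6.40 and 7.47 CPM and at 12.9, 8.94 and 9.35 CPM, which did not overlap, yet its 0.51 ± 0.19 missed the threshold (FDR = 0.0517). Of the exon bases of *Gins2*, 67.3% lie opposite exons of *Gse1*. The strand setting of the counting is not given in the sources used here, so reads of the 2 genes cannot be told apart there. The same limit holds for 29.3% of *Kif20a*, 23.4% of *Ccnd1*, 22.8% of *Ube2c*, 17.4% of *Ccne2* and 12.5% of *Ccna2*, and for smaller shares of some other members.

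Polymerase and clamp genes rose in 3 of 4 cases. *Pcna* had the lowest FDR of all members, at 399.5, 423 and 424 CPM in Veh M[0] and 658, 751 and 707 CPM in Veh M[IL-4] (log2 fold change 0.76 ± 0.07, FDR = 4.86e-08). *Pole*, the catalytic subunit of polymerase epsilon, was at 18.3, 14.7 and 16.5 CPM and at 23.7, 25.3 and 19.4 CPM and missed the threshold (0.47 ± 0.18, FDR = 0.0530). For both the groups were apart. Some 51.5% of the *Pcna* transcript is shared with the near-identical *Pcna-ps2*, which held 3.20 to 12.3 CPM.

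Of 4 enzymes of nucleotide supply, 1 passed the test. The libraries of Veh M[IL-4] lay above those of Veh M[0] for all 4. The share of all genes that lay apart was not counted, so this is not read as particular to them. *Rrm1*, the large subunit of ribonucleotide reductase, was at 96.4, 78.5 and 83.2 CPM in Veh M[0] and 114, 115 and 117 CPM in Veh M[IL-4] (0.42 ± 0.10 on the log2 scale, FDR = 0.00375). *Rrm2*, the small subunit, was at 46.7, 32.7 and 42.9 CPM and at 62.7, 52.3 and 57.8 CPM (0.50 ± 0.22, FDR = 0.0974). *Uhrf1*, which directs DNA methylation to newly made strands, rose most of the 51 genes, from 33.7, 31.5 and 32.0 CPM to 67.2, 56.0 and 57.0 CPM (0.89 ± 0.16, FDR = 2.30e-04). It shares 44.3% of its transcript with *Gm5648*, which had at most 0.538 CPM.

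**Figure D2:**
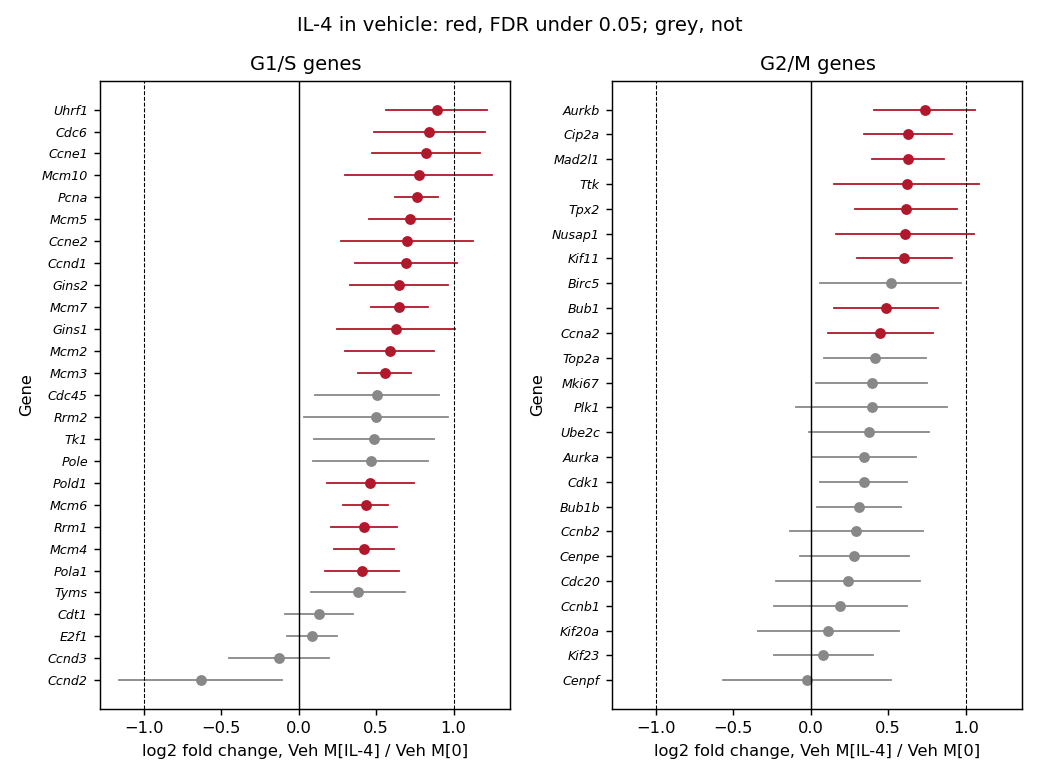
Log2 fold change of IL-4 in vehicle for each gene, Veh M[IL-4] minus Veh M[0], with G1/S genes in the left panel and G2/M genes in the right, and bars as 95% intervals of the edgeR fit. Red points are the 27 genes that passed the FDR and grey points those that did not, and none reaches a log2 fold change of 1.

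Of the G2/M genes, *Ccna2* (cyclin A2), which is needed from S phase into mitosis, was the 1 of 4 cyclin and CDK1 genes that rose, from 32.3, 27.4 and 29.9 CPM to 39.4, 42.1 and 41.0 CPM (0.45 ± 0.16, FDR = 0.0428). *Ccnb1* (cyclin B1, the partner of CDK1) was at 26.9, 19.3 and 22.7 CPM and at 24.0, 29.0 and 25.6 CPM, which overlapped (0.19 ± 0.20, FDR = 0.525). *Aurkb*, a kinase of the chromosomal passenger complex, was the 1 of 4 mitotic kinase and passenger genes that rose, from 14.0, 11.9 and 13.4 CPM to 20.6, 20.3 and 24.7 CPM (0.73 ± 0.16, FDR = 0.00136). *Plk1*, a kinase that acts on centrosomes and kinetochores, was higher in 3 of 3 libraries at 20.5, 16.3 and 17.97 CPM against 14.2, 13.04 and 14.5 CPM, but did not pass (0.39 ± 0.23, FDR = 0.222).

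The spindle checkpoint delays anaphase until chromosomes are attached, and 3 of its 4 genes rose. *Mad2l1* was at 22.5, 20.1 and 20.4 CPM in Veh M[0] and 29.6, 33.4 and 34.4 CPM in Veh M[IL-4] (0.63 ± 0.11 on the log2 scale, FDR = 2.24e-04), while *Bub1b* was at 25.8, 22.7 and 21.2 CPM and at 28.7, 27.6 and 30.1 CPM (0.31 ± 0.13, FDR = 0.0779). Neither partner of the anaphase-promoting complex passed, with 0.37 ± 0.18 for *Ube2c* (FDR = 0.136) and 0.24 ± 0.22 for *Cdc20* (FDR = 0.449).

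Of 5 spindle genes 3 rose, and none of 4 kinetochore and chromosome genes did. *Kif11* rose from 28.0, 22.4 and 28.3 CPM to 38.4, 46.0 and 35.4 CPM (0.60 ± 0.15, FDR = 0.00371), whereas *Kif20a*, a motor of cell division, was at 22.01, 17.3 and 19.5 CPM and at 21.0, 21.7 and 20.9 CPM (0.11 ± 0.22, FDR = 0.737). *Top2a* was at 134, 104 and 104 CPM and at 147, 165 and 143 CPM, apart by group but short of the threshold (0.41 ± 0.16, FDR = 0.0534). *Cenpf*, a kinetochore protein, was at 25.2, 17.3 and 19.9 CPM and at 19.1, 21.9 and 20.6 CPM, fully overlapping (-0.02 ± 0.26, FDR = 0.964). *Cip2a*, an inhibitor of the phosphatase PP2A, rose from 18.6, 15.9 and 14.6 CPM to 22.3, 28.2 and 25.4 CPM (0.63 ± 0.14, FDR = 0.00149).

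In M[0], each inhibitor lowered members of both phases against Veh M[0]. This comparison shares its 3 vehicle libraries with that of IL-4. With HC3, 15 of 27 G1/S and 11 of 24 G2/M genes fell at the FDR, against 21.5% of all genes, with medians of -0.40 and -0.49 beside 0.02 over all genes. Called lower were 0 G1/S and 3 G2/M genes, against 6.11% of all genes, and none was called higher, against 5.93%. A count of 3 in 51 members is near the share of all genes and is not read as particular to the members. The 3 were *Kif23*, a motor of the central spindle (29.3, 31.2 and 27.7 CPM in Veh M[0], 16.6, 13.2 and 11.8 CPM in HC3 M[0]), *Mki67*, the source of the proliferation antigen Ki-67 (132, 99.1 and 108 CPM, 70.0, 42.1 and 48.8 CPM), and *Nusap1*, a spindle microtubule protein (20.3, 15.5 and 14.8 CPM, 10.5, 5.84 and 7.26 CPM). Their log2 fold changes were -1.08 ± 0.16, -1.08 ± 0.18 and -1.10 ± 0.22, and in all of them the HC3 libraries lay below the vehicle libraries.

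With RSM in M[0], 20 G1/S and 19 G2/M genes fell at the FDR, against 20.7% of all genes, and 9 and 11 were called lower, against 6.51%. None was called higher, against 5.05%. The medians were -0.69 and -0.97, with 0.01 over all genes. *Nusap1* was lowest, at 4.48, 2.41 and 3.90 CPM in RSM M[0] (-2.23 ± 0.24, FDR = 5.01e-07), and *Ccnd1* fell most of the G1/S genes, to 48.7, 30.2 and 46.6 CPM (-1.76 ± 0.16, FDR = 7.42e-08). *Mcm5* stood at 16.3, 14.7 and 18.4 CPM (-1.69 ± 0.13, FDR = 8.06e-09). All of these libraries were below every vehicle library.

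In M[IL-4], nearly all members were lower with either inhibitor. HC3 lowered 24 of 27 G1/S and 24 of 24 G2/M genes against Veh M[IL-4], where 19.9% of all genes fell, with medians of -1.06 and -1.32. Called lower were 14 and 18, against 5.53% of all genes, and none was called higher, against 4.72%. RSM lowered 24 and 24 genes, where 18.5% of all genes fell, with medians of -1.40 and -1.76, and 19 and 22 were called lower, against 6% of all genes. None was called higher with RSM, against 5.05%. All of these comparisons share the 3 libraries of Veh M[IL-4] with each other and with IL-4 in vehicle, so a library that stood high there would enter each of them.

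The deepest falls with RSM in M[IL-4] were those of *Nusap1*, at 20.9, 32.1 and 24.2 CPM in Veh M[IL-4] and 3.77, 2.91 and 2.87 CPM in RSM M[IL-4] (-3.01 ± 0.24, FDR = 1.21e-08), and of *Uhrf1*, at 10.1, 6.46 and 8.30 CPM with RSM (-2.85 ± 0.17, FDR = 2.75e-10). With HC3 in M[IL-4], *Nusap1* was at 6.00, 5.92 and 7.94 CPM (-1.96 ± 0.23) and *Uhrf1* at 17.3, 14.1 and 15.8 CPM (-1.93 ± 0.16). *Kif23* fell to 9.57, 9.57 and 9.09 CPM with HC3 and to 5.76, 5.22 and 5.80 CPM with RSM, from 27.0, 38.0 and 28.3 CPM (-1.72 ± 0.16 and -2.47 ± 0.17). In each of these genes the 3 groups were ordered vehicle, HC3, RSM without overlap.

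Among the other role groups, all 6 MCM helicase subunits fell with both inhibitors in M[IL-4] (5 called with HC3, 6 with RSM). *Mcm7* was at 25.5, 24.4 and 25.7 CPM with HC3 and 19.8, 17.2 and 17.2 CPM with RSM (-1.49 ± 0.09 and -1.97 ± 0.09), and *Pcna* at 409, 403 and 382 CPM and 234, 239 and 231 CPM (-0.83 ± 0.07 and -1.59 ± 0.07). *Top2a* was at 48.1, 48.6 and 55.5 CPM and 39.4, 25.9 and 42.5 CPM (-1.58 ± 0.16 and -2.08 ± 0.17). All 4 cyclin A, cyclin B and CDK1 genes fell with either inhibitor, *Ccnb2* (cyclin B2) most, from 19.4, 21.3 and 20.0 CPM to 6.40, 5.59 and 7.67 CPM with HC3 and 4.13, 2.64 and 4.20 CPM with RSM (-1.63 ± 0.22 and -2.46 ± 0.23).

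**Figure D3:**
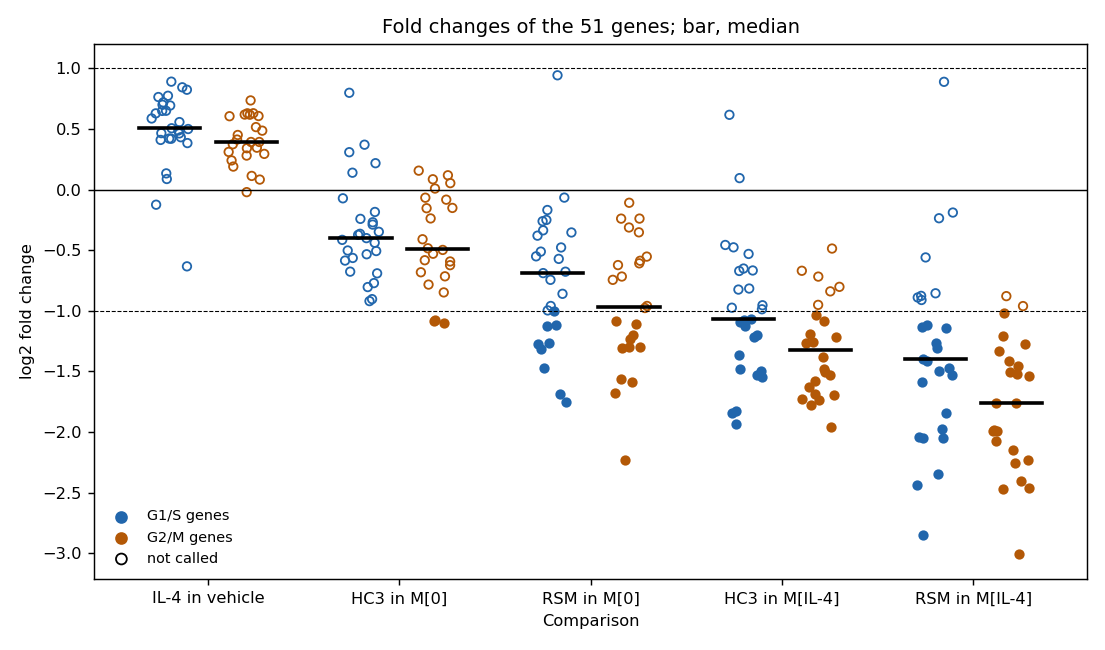
Log2 fold changes of the 27 G1/S and 24 G2/M genes in IL-4 in vehicle and in the 4 comparisons of an inhibitor with vehicle, 1 point per gene, with a bar at the median and filled points for called genes (FDR under 0.05 and past the dashed lines at a log2 fold change of 1 either way). Medians were 0.51 and 0.39 for IL-4, and the lowest were -1.40 and -1.76 for RSM in M[IL-4].

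Not all G1/S genes followed. *Ccnd2* rose with HC3 in M[0], to 84.6, 52.6 and 71.7 CPM (0.80 ± 0.24, FDR = 0.0117), with RSM in M[0], to 96.5, 57.4 and 77.001 CPM (0.94 ± 0.24, FDR = 0.00396), and with RSM in M[IL-4], to 53.2, 37.2 and 52.9 CPM (0.89 ± 0.25, FDR = 0.00798). With HC3 in M[IL-4] it was at 39.6, 27.4 and 51.6 CPM and missed the threshold (0.62 ± 0.25, FDR = 0.0594). In every group library 2 was the lowest, and so it was for the summed stromal genes. Mean sums of these genes without IL-4 were 733 CPM for vehicle, 1477 for HC3 and 1326 for RSM. After IL-4 they were 533, 866 and 851 CPM in the same order. Whether stromal cells contributed to the *Ccnd2* values was not tested. With the replicate number as a block within each polarization *Ccnd2* rose with HC3 in M[IL-4] as well (0.60 ± 0.08, FDR = 8.22e-07). Without the block it was the only member that rose with an inhibitor, and with it *Rrm2* (0.36 ± 0.09, FDR = 9.99e-04) and *Cdt1* (0.22 ± 0.07, FDR = 0.0170) also rose with HC3 in M[0].

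*Ccnd1* went the other way and fell in all 4 inhibitor comparisons, to 85.1, 60.5 and 81.1 CPM in HC3 M[0] (-0.90 ± 0.16), 105, 88.0 and 105 CPM in HC3 M[IL-4] (-1.20 ± 0.16) and 91.8, 76.8 and 78.1 CPM in RSM M[IL-4] (-1.47 ± 0.16). *Ccnd3* fell at the FDR with HC3 in M[IL-4], at 22.02, 13.7 and 18.7 CPM (-0.67 ± 0.16, FDR = 0.00239). It was at 26.3, 23.5 and 27.4 CPM in HC3 M[0], 32.0, 26.4 and 31.7 CPM in RSM M[0] and 29.6, 18.6 and 25.1 CPM in RSM M[IL-4]. With the block within each polarization it fell with HC3 in M[0] (-0.29 ± 0.08, FDR = 0.00446) and RSM in M[IL-4] (-0.25 ± 0.08, FDR = 0.0150) too. The D cyclins therefore included a gene that fell in 4 inhibitor comparisons, another that rose in 3 (4 with the block) and another that fell in 1 (3 with the block).

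For cyclin E1 the effect of the inhibitors differed between the polarizations, with an interaction of -1.28 ± 0.24 (FDR = 0.00256) with HC3, while that of RSM was -0.87 ± 0.24 (FDR = 0.0285). *Ccne1* was at 9.10, 7.12 and 8.26 CPM in HC3 M[0] and 6.19, 5.54 and 4.88 CPM in RSM M[0], neither of which passed the test (FDR = 0.150 and 0.265), but fell in M[IL-4] to 6.68, 4.59 and 6.52 CPM with HC3 (-0.97 ± 0.17, FDR = 1.24e-04) and to 6.52, 5.06 and 4.52 CPM with RSM (-1.12 ± 0.17, FDR = 2.84e-05). *Ccne2* fell in all 4, to 8.56, 5.43 and 6.10 CPM in HC3 M[0] (-0.59 ± 0.21), 5.49, 3.77 and 5.75 CPM in RSM M[0] (-1.005 ± 0.22), 4.47, 6.20 and 6.90 CPM in HC3 M[IL-4] (-1.48 ± 0.21) and 5.60, 3.66 and 4.31 CPM in RSM M[IL-4] (-1.85 ± 0.22). In HC3 M[0] alone did its libraries overlap those of vehicle.

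*E2f1* fell by a like amount in all 4, to 38.0, 37.8 and 37.3 CPM in HC3 M[0], 37.0, 35.4 and 35.2 CPM in RSM M[0], 42.8, 37.6 and 36.7 CPM in HC3 M[IL-4] and 35.8, 38.3 and 36.5 CPM in RSM M[IL-4], with log2 fold changes of -0.44 to -0.56, each ± 0.08. *Cdt1* passed no test of an inhibitor against vehicle without the block: it was at 54.7, 63.5 and 68.0 CPM in HC3 M[0], 44.7, 42.8 and 46.2 CPM in RSM M[0], 66.7, 59.4 and 61.5 CPM in HC3 M[IL-4] and 52.6, 48.2 and 53.3 CPM in RSM M[IL-4]. Its log2 fold changes against vehicle ranged from -0.26 to 0.22. With the block it passed in 3 of the 4, at 0.22 ± 0.07 for HC3 in M[0] (FDR = 0.0170), -0.26 ± 0.08 for RSM in M[0] (FDR = 0.00570) and -0.18 ± 0.07 for RSM in M[IL-4] (FDR = 0.0479).

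**Figure D4:**
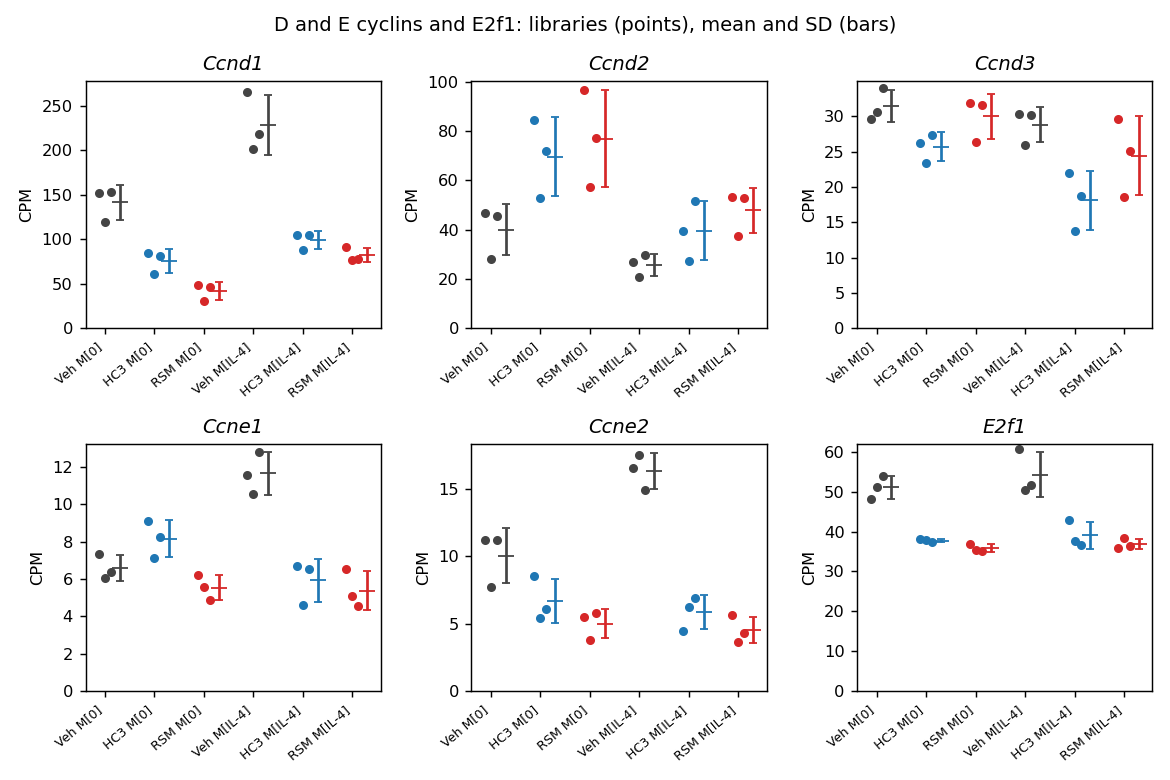
CPM of the D and E cyclins and E2f1 in each library of the 6 groups (points, linear scale from 0), with the mean and SD of each group as bars. Ccnd1 and the E cyclins are highest in Veh M[IL-4], Ccnd2 is highest in RSM M[0], and E2f1 is higher in both vehicle groups than in the inhibitor groups.

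Of the 27 genes that IL-4 raised in vehicle, all 18 G1/S and all 9 G2/M genes were below their M[IL-4] vehicle level under each of the inhibitors. Under HC3, 12 and 7 of them were called, and with RSM 16 and 8. Since both comparisons hold Veh M[IL-4], these counts are not separate evidence from the rise itself. The test of whether the effect of IL-4 differed with an inhibitor is the interaction, given below.

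Under an inhibitor, few members rose with IL-4. Counts of G1/S genes that rose or fell lay near the shares of all genes. Neither these counts nor that of risen G2/M genes are read as particular to the members. Within HC3, 1 G1/S gene rose (*Pcna*, 0.29 ± 0.07, FDR = 0.00552) and 3 fell (*Ccnd2*, *Ccnd3* and *Mcm7*), while 0 G2/M genes rose and 7 fell (*Aurka*, *Bub1*, *Bub1b*, *Kif23*, *Cenpe*, *Ube2c* and *Cip2a*), where 7.22% of all genes rose and 7.48% fell. Within RSM, 3 G1/S genes rose (*Ccnd1*, 0.97 ± 0.16, *Mcm6*, 0.30 ± 0.07, and *Pcna*, 0.29 ± 0.07) and 2 fell (*Cdc6* and *Mcm7*), while 0 G2/M genes rose and 5 fell (*Aurka*, *Bub1b*, *Kif23*, *Cenpe* and *Cip2a*), where 8.79% and 6.74% of all genes did. Median log2 fold changes of IL-4 were -0.19 and -0.50 for G1/S and G2/M genes under HC3, and -0.13 and -0.47 under RSM. These counts changed when a replicate number was left out of all groups, which leaves 2 libraries a group. Without number 3, 0 and 0 genes passed under HC3 and 1 and 0 under RSM. Without number 1, 0 G2/M genes passed under either. Without number 2, 15 G2/M genes fell under HC3 and 10 under RSM.

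The interaction of an inhibitor with IL-4 compares the effect of IL-4 under the inhibitor with its effect in vehicle. For HC3 it was below 0 at the FDR for 12 G1/S and 14 G2/M genes, against 3.4% of all genes, with medians of -0.65 and -0.85. Called were 4 G1/S genes (*Ccne1*, -1.28 ± 0.24, *Cdc6*, -1.35 ± 0.25, *Mcm10*, -1.16 ± 0.33, and *Uhrf1*, -1.24 ± 0.23) and 4 G2/M genes (*Aurkb*, -1.10 ± 0.23, *Bub1*, -1.07 ± 0.24, *Ttk*, -1.27 ± 0.33, and *Cip2a*, -1.09 ± 0.19), against 0.761% of all genes. Their FDR lay between 0.00188 (*Cip2a*) and 0.0440 (*Mcm10*). No member had an interaction above 0 at the FDR.

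For RSM the interaction was below 0 for 11 G1/S and 13 G2/M genes, against 4.14%, with medians of -0.59 and -0.86. Called were 2 G1/S genes (*Cdc6*, -1.69 ± 0.26, FDR = 2.67e-04, and *Uhrf1*, -1.38 ± 0.24, FDR = 8.66e-04) and 3 G2/M genes (*Cip2a*, -1.09 ± 0.20, FDR = 0.00125, *Aurkb*, -1.04 ± 0.24, FDR = 0.00837, and *Bub1*, -1.02 ± 0.24, FDR = 0.00996), against 0.921%. Both interactions share the 6 vehicle libraries. Same-numbered libraries of 1 polarization deviated together. With the replicate number as a block within each polarization, the HC3 interaction was below 0 for 21 and 24 genes (4 and 5 called). The RSM interaction was below 0 for 18 and 23 (3 and 4 called). The share over all genes was not counted with this block, so the larger counts are not read as particular to the members. Without the libraries numbered 3, only 1 G1/S and 0 G2/M genes passed for either inhibitor, and without number 1 the HC3 interaction passed for 7 and 2 genes and the RSM interaction for 9 and 6.

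The values behind the interaction of *Cdc6* were 6.37, 4.30 and 5.52 CPM in HC3 M[0] against 4.36, 3.71 and 3.34 CPM in HC3 M[IL-4], and 5.28, 3.92 and 5.18 CPM in RSM M[0] against 3.11, 2.10 and 2.77 CPM in RSM M[IL-4]. The RSM groups were apart and those of HC3 overlapped. Those of *Aurkb* were 8.51, 7.02 and 9.05 CPM against 6.40, 5.48 and 7.23 CPM for HC3 and 7.10, 4.24 and 5.85 CPM against 5.35, 4.52 and 4.04 CPM for RSM. Here both pairs of groups overlapped, while in vehicle the IL-4 libraries stood above. For *Cip2a*, 18.6, 15.0 and 15.7 CPM stood against 11.4, 11.2 and 13.1 CPM with HC3 and 16.9, 11.3 and 13.3 CPM against 9.63, 10.6 and 9.95 CPM with RSM. Here IL-4 libraries were the lower ones without overlap, the reverse of vehicle.

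HC3 at 250 µM and RSM at 5 µM were given at different doses, so the difference between the inhibitors is one of these treatments as used. In M[0], 14 G1/S and 9 G2/M genes were higher with HC3 than with RSM, against 6.18% of all genes, and none was lower. Called were 0 and 1 (*Nusap1*, 1.13 ± 0.25, FDR = 0.00435), against 1.61%. In M[IL-4], 9 G1/S and 8 G2/M genes were higher with HC3, against 4.97% of all genes, and 1 was called, again *Nusap1* (1.05 ± 0.26, FDR = 0.00901), against 1.21%. *Pcna* differed by 0.77 ± 0.07 and 0.76 ± 0.07 in the 2 polarizations, with no overlap in either. With the block within each polarization, 18 G1/S and 22 G2/M genes were higher with HC3 without IL-4 and 1 G1/S gene was lower. With IL-4 these counts were 16, 16 and 2. The share over all genes was not counted with the block. Without the libraries numbered 3, 3 G1/S (*Mcm5*, *Mcm6* and *Pcna*) and 0 G2/M genes passed in M[0] and 1 (*Pcna*) and 0 in M[IL-4], and neither call of *Nusap1* held. Without number 1, 10 and 2 genes passed without IL-4 and 9 and 5 genes with it.

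To set the phases side by side in each library, the median log2 level over the members of a phase was taken, relative to each gene's mean in Veh M[0]. The G1/S median was 0.51 ± 0.11 (SD, n = 3) in Veh M[IL-4], -0.37 ± 0.08 in HC3 M[0], -0.68 ± 0.10 in RSM M[0], -0.50 ± 0.09 in HC3 M[IL-4] and -0.81 ± 0.07 in RSM M[IL-4]. The G2/M median was 0.37 ± 0.01, -0.44 ± 0.26, -0.90 ± 0.34, -0.90 ± 0.19 and -1.28 ± 0.31 in the same order. The replicates of an inhibitor group thus spread more widely in G2/M than in G1/S genes, and in each of the 4 inhibitor groups library 2 had the lowest median of both phases.

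The G2/M minus the G1/S median was -0.01 ± 0.08 in Veh M[0], -0.08 ± 0.19 in HC3 M[0], -0.22 ± 0.25 in RSM M[0], -0.15 ± 0.12 in Veh M[IL-4], -0.40 ± 0.10 in HC3 M[IL-4] and -0.47 ± 0.26 in RSM M[IL-4] (mean ± SD, n = 3). All 3 libraries of HC3 M[IL-4] (-0.51 to -0.31) and all 3 of RSM M[IL-4] (-0.76 to -0.30) lay below all 3 of Veh M[IL-4] (-0.28 to -0.04). In M[0], the inhibitor groups (-0.27 to 0.10 with HC3, -0.51 to -0.04 with RSM) overlapped Veh M[0] (-0.10 to 0.07). This balance is a description of the chosen genes and was not tested.

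**Figure D5:**
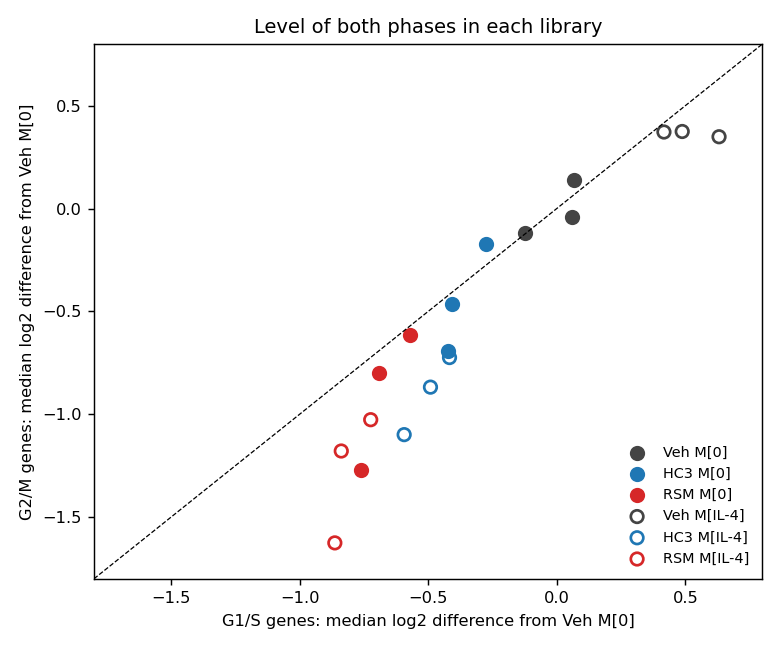
Median log2 level of the G1/S genes (x axis) and of the G2/M genes (y axis) in each library, relative to Veh M[0], with the line of equal change. The 6 inhibitor-treated M[IL-4] libraries lie below the line, at -0.76 to -0.30 on the log2 scale (G2/M minus G1/S median). So do all 3 of Veh M[IL-4] (-0.28 to -0.04) and all 3 of RSM M[0] (-0.51 to -0.04). Libraries of Veh M[0] (-0.10 to 0.07) and HC3 M[0] (-0.27 to 0.10) lie on both sides.

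Other genes of the same processes are given from lists written for the tissue. Of 41 further replication genes, 24 rose with IL-4 in vehicle and none fell, against 16.1% and 14.9% of all genes. In M[IL-4], 32 fell with each inhibitor, against 19.9% of all genes for HC3 and 18.5% for RSM, and 14 were called lower with each, against 5.53% and 6%. For IL-4 in vehicle, *Rfc5*, a subunit of the clamp loader, was called higher (1.18 ± 0.11, FDR = 1.92e-07). In the same comparison *Rpa1*, a protein that binds single-stranded DNA, rose by 0.37 ± 0.06 and *Dut*, which removes dUTP, by 0.73 ± 0.13. With RSM in M[IL-4], *Lig1*, which joins Okazaki fragments, fell (-1.90 ± 0.10), as did *Brca1*, a repair gene (-1.78 ± 0.15), and *Dnmt1*, the maintenance DNA methyltransferase that works with UHRF1 (-0.77 ± 0.07).

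Of 39 further mitosis genes, 18 rose with IL-4 in vehicle and none fell, where 16.1% and 14.9% of all genes did. Once IL-4 was present, 37 fell with HC3 and 38 with RSM, beside 19.9% and 18.5% of all genes, and 26 and 32 were called lower, beside 5.53% and 6%. For IL-4 in vehicle, *Incenp*, the scaffold of the passenger complex, rose by 0.55 ± 0.06 (FDR = 4.70e-07). In the same comparison *Ccnf* (cyclin F) rose by 0.65 ± 0.12 and *Smc4*, a condensin subunit, by 0.50 ± 0.09. With RSM in M[IL-4] the log2 fold changes were -1.19 ± 0.06 for *Incenp*, -1.86 ± 0.13 for *Cenpa*, the centromeric histone, and -1.86 ± 0.14 for *Ncaph*, another condensin subunit.

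Of 16 regulators of the E2F, MYC and MuvB families 15 were tested, 7 rose with IL-4 in vehicle (16.1% of all genes), 7 fell with HC3 in M[IL-4] (19.9%) and 8 with RSM (18.5%). *Myc*, which drives growth and entry into the cycle, was at 18.5, 24.0 and 25.6 CPM in Veh M[0] and was called at 66.7, 64.9 and 63.6 CPM in Veh M[IL-4] (1.52 ± 0.16, FDR = 5.39e-07). Like *Ccnd2*, *Myc* rose with HC3 in M[0] (43.9, 34.6 and 43.3 CPM, 0.84 ± 0.16) and with RSM in M[0] (36.0, 25.7 and 34.7 CPM, 0.50 ± 0.16). In M[IL-4] it was at 66.0, 47.1 and 59.4 CPM with HC3 (-0.18 ± 0.15, FDR = 0.380) and fell to 53.9, 38.2 and 41.8 CPM with RSM (-0.54 ± 0.15, FDR = 0.00771), and its interactions reached the fold limit for both (-1.02 ± 0.22 and -1.04 ± 0.22).

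*Max*, the partner of MYC, rose by 0.32 ± 0.06 with IL-4 in vehicle. *Mybl2* (B-MYB) rose from 6.25, 4.52 and 7.37 CPM to 10.7, 10.8 and 9.86 CPM (0.79 ± 0.24, FDR = 0.0178) and was called lower in M[IL-4] with HC3 (-1.23 ± 0.25) and RSM (-1.49 ± 0.25). *Foxm1* was at 22.4, 16.8 and 21.3 CPM and at 23.6, 29.8 and 28.2 CPM, apart by group but not past the threshold (0.43 ± 0.20, FDR = 0.111), and was called lower with both inhibitors in M[IL-4] (-1.14 ± 0.21 and -1.58 ± 0.21). The deepest falls with RSM in M[IL-4] were those of *E2f8* (-2.82 ± 0.22) and *E2f7* (-2.51 ± 0.21), which repress E2F targets late in S phase, and *E2f8* rose by 0.71 ± 0.19 with IL-4 in vehicle.

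Of 7 inhibitors of cyclin-dependent kinases, 2 rose and 2 fell with IL-4 in vehicle, where 16.1% of all genes rose and 14.9% fell. *Cdkn1a* (p21) was at 116, 122 and 128 CPM in Veh M[0] and at 203, 218 and 226 CPM in Veh M[IL-4], and it was at 287, 272 and 291 CPM in HC3 M[0], 316, 315 and 329 CPM in RSM M[0], 390.5, 368 and 388 CPM in HC3 M[IL-4] and 470, 463 and 452 CPM in RSM M[IL-4]. It rose in all 5 comparisons, by 0.82 ± 0.06 for IL-4. Without IL-4 the rise was 1.22 ± 0.06 for HC3 and 1.39 ± 0.06 for RSM, and after IL-4 it was 0.82 ± 0.06 and 1.10 ± 0.06, with no overlap of groups. Thus the gene rose both where members rose and where they fell. *Cdkn1c* (p57), at 12.2, 15.4 and 8.44 CPM in Veh M[0], was called lower with IL-4 in vehicle (4.09, 4.88 and 4.98 CPM, -1.37 ± 0.26) and moved in opposite directions with the inhibitors, at 1.37 ± 0.23 (M[0]) and 1.13 ± 0.26 (M[IL-4]) for HC3, and at -1.03 ± 0.25 and -0.94 ± 0.29 for RSM.

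*Cdkn1b* (p27) fell with IL-4 in vehicle (-0.47 ± 0.09). *Cdkn2c* (p18) fell with RSM in M[IL-4] (-1.21 ± 0.09), as did *Cdkn2d* (p19, -0.49 ± 0.14). Of 8 G1 kinases and pocket proteins, 2 rose (16.1% of all genes) and 3 fell (14.9%) with IL-4 in vehicle, among them *Rbl1* (p107, 0.70 ± 0.10), *Ccng2* (cyclin G2, -0.53 ± 0.09) and *Cdk4* (0.22 ± 0.06). With RSM in M[IL-4], *Rbl1* fell (-0.88 ± 0.10), while *Rb1* rose by 0.55 ± 0.09 and *Ccng1* by 0.51 ± 0.08.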

How the data were processed

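The authors made poly-T-selected RNA libraries, 18 in 6 groups of 3. Their deposited values are counts of read pairs on the exons of each Ensembl gene, not normalized. According to the methods, fastp did the trimming and STAR the alignment (local mode, GRCm38), pairs of high mapping quality were retained, Picard marked duplicates without removal, and featureCounts did the counting. Tool versions, the annotation release and the strand setting are not given in the sources used here. All 18 columns were used, and groups came from the sample labels.

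Symbols, positions and exons came from GENCODE for GRCm38 and matched 55144 of 55385 identifiers. Following the authors' filter, 14979 genes that reached 10 counts in 2 or more libraries were tested. Tests used edgeR 4.0.16 in R 4.3.3 (TMM, glmQLFit, glmQLFTest) with 1 coefficient for each group, unblocked. A call required FDR below 0.05 together with a change of 2-fold or more (log2 of 1). Phase medians used log2(CPM + 1). Depth was 17457796 to 19522255 counts, and intervals on counts cover counting error only. With 3 libraries against 3, an exact permutation test could not go below p = 0.1 and was not used. P-values measure the spread between these libraries, which come from 3 mice.

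Residual correlations showed whether replicate numbers pair libraries. Same-numbered libraries of 1 polarization correlated at 0.110 to 0.372, above 0.1 in 18 of 18 pairs, and were taken as paired by number there. Across polarizations 12 of 27 pairs were above 0.1, and in vehicle 2 of 3. The same-numbered vehicle pairs correlated at 0.0411 (number 1), 0.2645 (number 2) and 0.1053 (number 3). Library 3 of Veh M[0] also correlated at 0.1787 with library 1 of Veh M[IL-4]. Libraries were therefore not taken as paired by number for IL-4 in vehicle, and whether a number is the same mouse there was not tested. Alternatives were blocks on the number, the compared groups alone, DESeq2 1.42.0, library-size scaling, no count filter (29054 genes), filterByExpr (14466 genes), no fold threshold, another pseudocount (0.1), a shorter promoter window and leaving out each replicate number. Steps were tested on simulated data.

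The members and gene lists were chosen with earlier results of these data known. Any member could be named. Values of every library are given for D and E cyclins, *E2f1* and, per role, the members with the lowest and highest FDR for IL-4 in vehicle. Further genes were the called members of each interaction, those with the lowest FDR of each other list (up to 3 for IL-4 in vehicle and for RSM in M[IL-4]) and *Cdkn1a*, *Myc*, *Foxm1* and *Mybl2*. *Nusap1*, *Kif23*, *Mki67*, *Ccnb2* and other members with large falls were picked once their values were known. Metabolite, flow cytometry and infection data were not used here.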

Additional observations from a re-analysis of the deposited data

Results flagged for a closer look

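The effect of IL-4 differed between inhibitor and vehicle, by the interaction test of edgeR with a fold threshold, for 4 G1/S and 4 G2/M genes with HC3 and for 2 G1/S and 3 G2/M genes with RSM. With HC3 the interaction (log2, effect of IL-4 under the inhibitor minus its effect in vehicle) was -1.28 for *Ccne1*, -1.35 for *Cdc6*, -1.16 for *Mcm10*, -1.24 for *Uhrf1*, -1.10 for *Aurkb*, -1.07 for *Bub1*, -1.27 for *Ttk* and -1.09 for *Cip2a*. With RSM it was -1.69 for *Cdc6*, -1.38 for *Uhrf1*, -1.04 for *Aurkb*, -1.02 for *Bub1* and -1.09 for *Cip2a*. *Cdc6*, *Uhrf1*, *Aurkb*, *Bub1* and *Cip2a* were called for both inhibitors, which share the vehicle libraries. The direction was below 0 in each of these genes under every alternative run. Of the 8 calls with HC3 and the 5 with RSM, however, 0 held in every setting. All of them were lost without the libraries numbered 3, which leaves 2 libraries a group.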

How the results depend on the processing

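No called member turned direction under any alternative: of 302 member calls of both rules over 11 comparisons, 144 held in every one of the 10 settings that gave a value and 0 reversed. Of the 27 members raised by IL-4 in vehicle, 11 passed in all of those.

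Without the fold threshold, calls of G1/S and G2/M genes became 18 and 9 for IL-4 in vehicle, 16 and 11 for HC3 without IL-4, 21 and 19 for RSM without IL-4, 24 G1/S genes for HC3 with IL-4 present, 4 and 7 for IL-4 under HC3, 5 and 5 under RSM, 12 and 14 for the HC3 interaction, 11 and 13 for the RSM interaction, 14 and 9 for HC3 against RSM without IL-4, and 9 and 8 with it.

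With the replicate block, the number over all libraries, 17 G2/M genes passed the FDR for IL-4 in vehicle, 11 and 16 G1/S and G2/M genes for IL-4 under HC3 and 10 and 14 under RSM. Same-numbered libraries of the 2 polarizations correlated above 0.1 in 12 of 27 pairs only, so these counts are not read as a stronger or weaker effect. The block within each polarization has no value for the comparisons of IL-4 with no IL-4, since its number effects cannot be told apart from the polarization there. Blocking within each polarization also moved the counts of the interactions, of HC3 against RSM and of the few G1/S genes that rose with an inhibitor, as given in the report. In M[0] this block gave 17 G1/S and 14 G2/M genes that fell with HC3, and 21 and 23 with RSM. In M[IL-4] it gave 25 and 24 with HC3 and 26 and 24 with RSM. The share over all genes was not counted with this block, so these counts are not read as particular to the members. Fitting only the compared groups gave 16 G2/M genes for IL-4 in vehicle and 2 for IL-4 under RSM. No count filter gave 15 for IL-4 in vehicle, 15 for IL-4 under HC3, and 8 and 16 for IL-4 under RSM. DESeq2 gave 13 G2/M genes for IL-4 under HC3. Words for CHR stood in 40% of G2/M windows and words for E2F in 25% of G1/S windows with upstream bases only. The cause of these shifts was not tested.

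Leaving out 1 replicate number gave ranges of 10 to 18 G1/S and 2 to 10 G2/M genes passing for IL-4 in vehicle, 0 to 5 and 0 to 15 for IL-4 under HC3, 1 to 5 and 0 to 10 under RSM, 1 to 13 and 0 to 17 for the HC3 interaction, 1 to 10 and 0 to 14 for the RSM interaction, 3 to 14 and 0 to 10 for HC3 against RSM without IL-4, and 1 to 9 and 0 to 8 with it. Calls with the fold threshold ranged over 0 to 1 G1/S genes for IL-4 under RSM, 1 to 5 and 0 to 4 for the HC3 interaction, 1 to 3 and 0 to 5 for the RSM interaction, 0 to 1 G2/M genes for HC3 against RSM without IL-4, and 0 to 1 of each phase with it. For the interactions the lowest of both kinds came without number 3, which leaves 2 libraries a group. Depth limits the genes of low level most, and the lowest count of a member was 31.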
